A study of Mus musculus with 2 samples.

Results

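Synaptic vesicles carry transmitter to the nerve terminal, dock at the active zone and fuse with the plasma membrane when calcium enters. Fusion is driven by SNARE proteins of the vesicle and the plasma membrane, is timed by synaptotagmins and complexins, and is prepared by the priming and scaffold proteins of the active zone. Growing axons already hold part of this machinery before synapses form, where it also serves the addition of membrane. The genes described here are 35 named members of that machinery, matched by name with no threshold on their levels: 10 synaptotagmins, 6 SNAREs, 3 SNARE regulators, 4 vesicle membrane proteins, 3 synapsins, 2 Rab3 GTPases, 6 active zone and priming proteins and 1 dynamin. All 35 were found by Ensembl identifier in both gene tables, among 43346 mouse genes.

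The tissue was neural tube, the embryonic source of the brain and spinal cord, dissected from B6NCrl mouse embryos of mixed sex at day 12.5 of development. The only group held 2 biological replicates, each a pool of healthy embryos: 88 embryos in replicate 2 and 120 in replicate 1. Both pools share a donor identifier, and no genetic change, treatment or second stage is given in the labels. Levels are deposited TPM values (a relative abundance that takes transcript length and sequencing depth into account) of 1 library a pool, so differences between the libraries measure the spread between pools and no p-value was computed. Ratios are log2 values of TPM + 1 in replicate 2 over that in replicate 1, so the ratios of weakly expressed genes are drawn towards 0. The libraries held 34555002 expected counts in replicate 2 and 32612423 in replicate 1. The members had between 301 and 12413 expected counts a library. In such bulk tissue, fewer cells of a type and less RNA per cell cannot be told apart. Neuronal and progenitor genes were both present: all 16 pan-neuronal genes examined and all 16 progenitor genes reached 1 TPM in both libraries.

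All 35 release genes reached 1 TPM in both libraries. Of all protein-coding genes 62.1% did so. The members were chosen with earlier results of these data known, so their full detection may partly reflect that choice. Of 44 other genes of the release pathway, 36 reached 1 TPM in both libraries. The members spread widely, with the lower quartile of their mean levels at 6.74 TPM, the median at 17.7 TPM and the upper quartile at 38.2 TPM. At a mean of at least 10 TPM there were 24 of the 35, against 43.1% of protein-coding genes (9248 of 21474). That base includes undetected genes, and only 13333 were detected in both libraries, so the gap in part repeats the difference in detection. Only 3 had a mean of at least 100 TPM, namely Syt11, Rab3a and Vamp2. Set against the 13333 protein-coding genes detected in both libraries, whose median was 21.4 TPM, 17 of the 35 members lay above that median. The members together made up 0.135% of the TPM on mouse genes in replicate 2 and 0.123% in replicate 1.

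**Figure D1:**
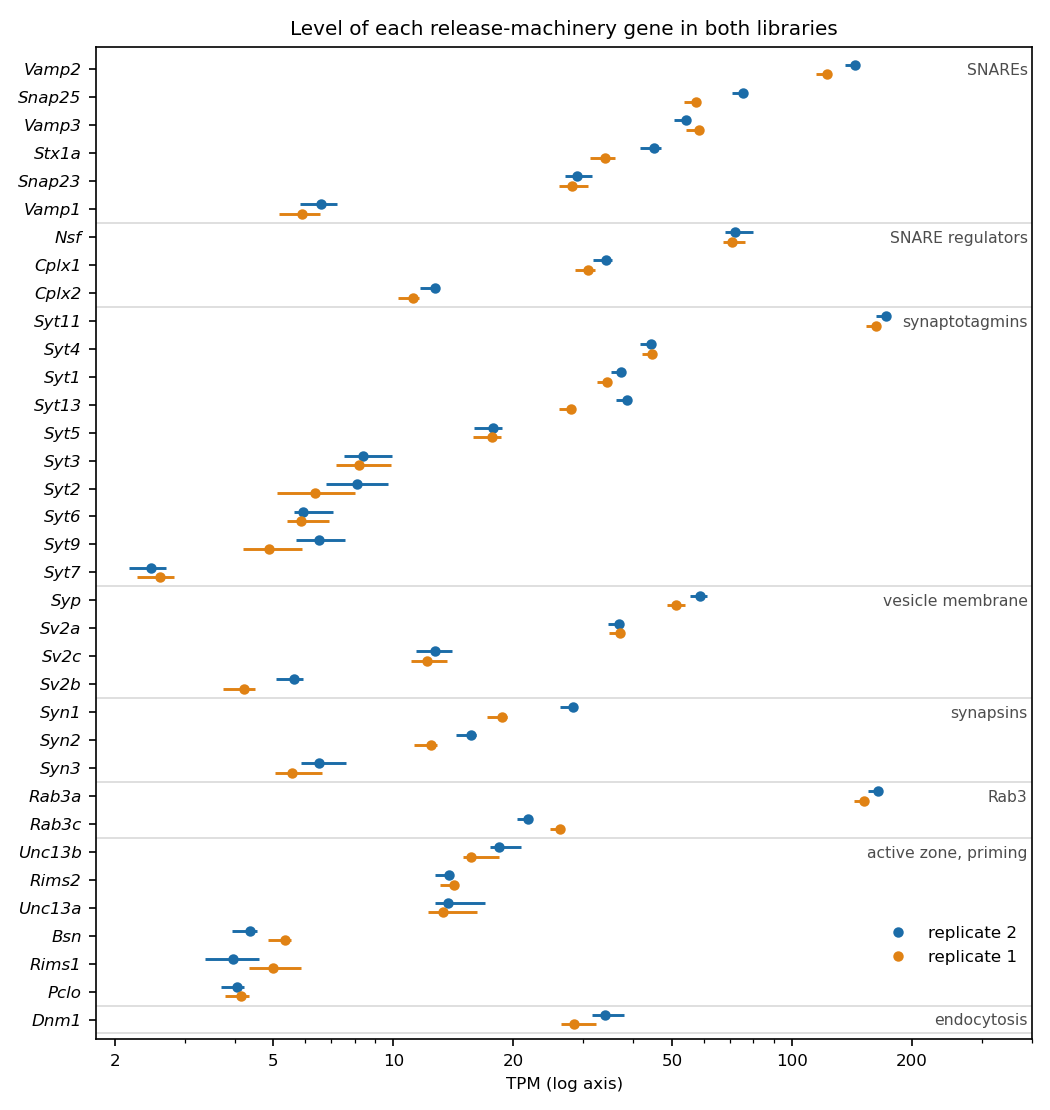
TPM (log axis) of the 35 genes, grouped by role and sorted by mean within each role. Points are the deposited values of replicate 2 (blue, upper) and replicate 1 (orange, lower), and lines are the deposited credibility intervals, whose level is not stated. Syt11, Rab3a and Vamp2 sit above 100 TPM in both libraries and Syt7 sits lowest, at 2.47 and 2.60 TPM.

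Among the SNAREs, the vesicle protein Vamp2 (synaptobrevin-2, the main vesicle SNARE of central neurons) was highest, at 144 TPM in replicate 2 and 122 TPM in replicate 1. Vamp3 (cellubrevin, its relative in the recycling vesicles of most cells) had 54.1 TPM in replicate 2 and 58.3 in replicate 1. Vamp1, the form best known from hindbrain, spinal cord and neuromuscular synapses of older animals, had only 6.60 TPM in replicate 2 and 5.89 in replicate 1. Vamp2 therefore held 67.9% ± 3.34 of the summed TPM of these 3 paralogs (SD, n = 2), Vamp3 held 28.9% ± 3.39 and Vamp1 held 3.19% ± 0.0488. The order was the same in both libraries. Vamp2 stood 21.8-fold over Vamp1 in replicate 2 and 20.8-fold in replicate 1.

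On the plasma membrane side, Snap25, the neuronal SNARE that gives 2 of the helices of the fusion complex, had 75.2 TPM in replicate 2 and 57.4 in replicate 1. Snap23, its counterpart in most other cells, had 28.9 TPM in replicate 2 and 28.0 in replicate 1. Snap25 thus exceeded Snap23 in each library, 2.60-fold in replicate 2 and 2.05-fold in replicate 1. Stx1a, a neuronal syntaxin, had 45.0 TPM in replicate 2 and 34.0 in replicate 1. The deposited intervals of Snap25, Stx1a and Vamp2 did not overlap between the libraries, while those of Snap23, Vamp3 and Vamp1 did.

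Nsf, the ATPase that takes spent SNARE complexes apart in every cell, was nearly level between the pools, at 71.9 TPM in replicate 2 and 70.5 TPM in replicate 1. Cplx1 and Cplx2 encode complexins, small proteins that clamp and then promote fusion. Cplx1 had 34.2 TPM in replicate 2 and 30.8 in replicate 1. Cplx2 had 12.7 TPM in replicate 2 and 11.2 in replicate 1. Cplx1 was the higher complexin in both libraries, with 73.1% ± 0.269 of the TPM of the pair. The complexins Cplx3 and Cplx4, known from the retina, were near or at the floor: Cplx3 had 0.00 TPM in replicate 2 and 0.04 in replicate 1, and Cplx4 was listed at 0 in both.

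The synaptotagmins are vesicle proteins with paired C2 domains, some of which bind calcium and trigger fusion. The highest was Syt11, which does not bind calcium in the classic manner and is known for endosomal and vesicle traffic, at 172 TPM in replicate 2 and 163 TPM in replicate 1. It alone held 51.0% ± 0.881 of the TPM of the 10 synaptotagmins, and it stood at percentile 93.3 of detected protein-coding genes. Syt4, a synaptotagmin of dense-core and other secretory vesicles whose C2 domains lack normal calcium binding, had 44.3 TPM in replicate 2 and 44.7 in replicate 1. Syt13, which also lacks calcium binding, had 38.6 TPM in replicate 2 and 28.0 in replicate 1, with intervals that did not overlap. Together these 3 held 255 TPM in replicate 2 and 235 TPM in replicate 1. This was 74.6% and 74.7% of the TPM of the 10 synaptotagmins. Other synaptotagmins are not in these shares. The highest of those examined was Syt16, at 16.1 TPM in replicate 2 and 14.7 in replicate 1.

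The 7 members with calcium-binding C2 domains summed to 86.5 TPM in replicate 2 and 79.9 TPM in replicate 1. This was 25.4% and 25.3% of the total of the member synaptotagmins. Syt1, the fast calcium sensor of forebrain synapses, was the highest of them, at 37.2 TPM in replicate 2 and 34.3 TPM in replicate 1. Syt11 was 4.61-fold above Syt1 in replicate 2 and 4.74-fold in replicate 1. Syt5 followed Syt1, at 17.8 TPM in replicate 2 and 17.7 TPM in replicate 1. These were the only 2 of the 7 over 10 TPM.

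Syt3, a plasma membrane form of high calcium affinity, had 8.41 TPM in replicate 2 and 8.22 in replicate 1. Syt2, the fast sensor of hindbrain and spinal synapses in older animals, had 8.11 TPM in replicate 2 and 6.35 in replicate 1. Syt6 had 5.95 TPM in replicate 2 and 5.86 in replicate 1. The intervals of Syt3 and Syt2 overlapped within each library, so their order is not resolved. Syt9 had 6.52 TPM in replicate 2 and 4.87 in replicate 1, and it changed places with Syt6 between the libraries. Syt7, known for slow and asynchronous release and for lysosome exocytosis, was the lowest of all 35 genes, at 2.47 TPM in replicate 2 and 2.60 TPM in replicate 1.

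Of the vesicle membrane proteins, Syp (synaptophysin, an abundant vesicle protein used as a marker of terminals) was highest, at 58.7 TPM in replicate 2 and 51.2 TPM in replicate 1. The SV2 proteins are transporter-like glycoproteins of the vesicle. Sv2a had 36.8 TPM in replicate 2 and 37.0 in replicate 1. Sv2c had 12.7 TPM in replicate 2 and 12.1 in replicate 1, and Sv2b had 5.63 TPM in replicate 2 and 4.23 in replicate 1. Sv2a held 68.0% ± 1.83 of SV2 TPM, and the order Sv2a, Sv2c, Sv2b was the same in both libraries.

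The synapsins tether vesicles to each other and to actin in the reserve pool. Syn1 had 28.2 TPM in replicate 2 and 18.7 in replicate 1. Syn2 had 15.7 TPM in replicate 2 and 12.4 in replicate 1, and Syn3 had 6.51 TPM in replicate 2 and 5.56 in replicate 1. All 3 were higher in replicate 2, and the intervals of Syn1 and Syn2 did not overlap between the libraries. Syn3 shares 1733 bases of exon, 14.1% of its own, with Timp3, a gene on the opposite strand at 39.7 TPM in replicate 2 and 33.3 TPM in replicate 1. The labels and headers do not say if reads were assigned by strand, and the part of Timp3 reads in the Syn3 value was not tested.

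Rab3 proteins are GTPases of the vesicle surface that bind RIM at the active zone. Rab3a had 164 TPM in replicate 2 and 152 in replicate 1, the second highest of the 35 genes. Rab3c had 21.8 TPM in replicate 2 and 26.2 in replicate 1. The members of this pair differed in opposite directions between the pools, and the intervals of each were apart. Per length, Rab3a held 86.8% ± 2.14 of the TPM of the pair. By expected counts it held 50.1%: Rab3a had 4325 and Rab3c 3773 in replicate 2, and Rab3a had 3846 and Rab3c 4380 in replicate 1. The effective length was 1274 nucleotides for Rab3a in replicate 2 and 8401 nucleotides for Rab3c. Rab3b and Rab3d are not among the 35 genes and not in these shares. Rab3b had 31.4 TPM in replicate 2 and 32.1 in replicate 1, above Rab3c in each. Rab3d had 15.9 TPM in replicate 2 and 17.2 in replicate 1.

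The genes of the active zone and of priming were low as a group, with a median of 9.05 TPM in replicate 2 and 9.34 TPM in replicate 1. Unc13b and Unc13a encode Munc13 proteins, which open syntaxin and make vesicles ready to fuse. Unc13b had 18.4 TPM in replicate 2 and 15.7 in replicate 1. Unc13a had 13.7 TPM in replicate 2 and 13.3 in replicate 1. Unc13b was the higher by TPM in both libraries, though its interval overlapped that of Unc13a in replicate 1. By expected counts the order turned, since Unc13b had 48.2% of the pair's counts.

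Rims2 and Rims1 encode RIM scaffolds that link Rab3, Munc13 and calcium channels. Rims2 had 13.8 TPM in replicate 2 and 14.2 in replicate 1, and Rims1 had 3.97 TPM in replicate 2 and 4.99 in replicate 1. Rims2 held 75.8% ± 2.56 of the pair's TPM. Bsn (bassoon) and Pclo (piccolo) are the giant scaffolds of the active zone. Bsn had 4.37 TPM in replicate 2 and 5.34 in replicate 1. Pclo had 4.05 TPM in replicate 2 and 4.14 in replicate 1. Both were among the 4 lowest members by TPM, but each rested on many reads: Bsn had 990 counts in replicate 2 and 1047 in replicate 1, and Pclo had 1290 in replicate 2 and 1268 in replicate 1. Dnm1, the neuronal dynamin that cuts vesicles from the membrane after fusion, had 33.9 TPM in replicate 2 and 28.5 in replicate 1. Its log2 ratio was 0.24 by TPM but 0.021 by TMM-scaled counts, and its effective length was 2635 nucleotides in replicate 2 and 3005 in replicate 1.

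**Figure D2:**
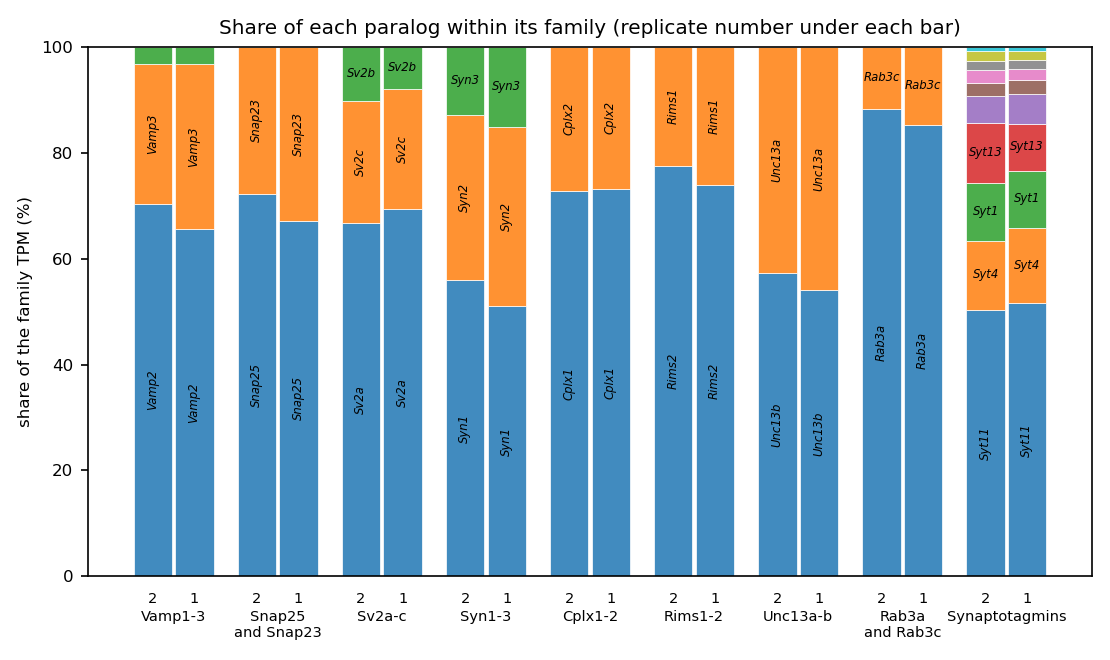
Share of each paralog in the summed TPM of its family (%), with replicate 2 left of replicate 1 in each pair of bars. Segments above Syt13 in the synaptotagmin bars are, from below, Syt5, Syt3, Syt2, Syt6, Syt9 and Syt7, and the top segment of the Vamp bars is Vamp1. Vamp2, Snap25, Sv2a, Syn1, Cplx1, Rims2, Unc13b, Rab3a and Syt11 led the members of their families in both libraries.

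The question the 2 pools allow is how far these levels repeat. On the TPM + 1 scale no member differed by over 1.5-fold between the libraries, and none by over 2-fold. Of the 15735 genes whose mean was 1 TPM or more, 3.41% passed 1.5-fold and 1.43% passed 2-fold. At shares this small, a set of this size would hold few such genes or none, so their absence does not set the members apart. Nor were the shares matched for read number. With a pseudocount of 0.1, for which no share over all genes is given, Syn1 alone passed 1.5-fold. Syn1 also came nearest on the TPM + 1 scale, with a log2 ratio of 0.57 (1.48-fold). It was followed by Syt13 at 0.45, Stx1a at 0.40, Snap25 at 0.38, Syt9 at 0.36, Sv2b at 0.34, Syn2 at 0.31 and Syt2 at 0.31. At the other end were Rims1 at -0.27, Rab3c at -0.26, Bsn at -0.24 and Vamp3 at -0.11.

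The members leaned to replicate 2. Of the 35, 26 were higher in replicate 2 (58.5% of those 15735 genes were), and the median log2 ratio was 0.11, beside 0.031 over all such genes. The deposited intervals were apart for 12 members. In 10 of them the level was higher in replicate 2, where 10.1% of all such genes were called: Rab3a, Vamp2, Snap25, Syp, Stx1a, Syt13, Syn1, Syn2, Cplx2 and Sv2b. In 2 of them, Rab3c and Bsn, it was lower in replicate 2, where 4.19% of all such genes were called. These shares over all genes were not matched for read number. Of 16 pan-neuronal genes, 9 had intervals apart and higher in replicate 2, and 1 lower. Of 16 growth cone genes, 8 were apart and higher and 5 lower. Of 36 other release genes with a ratio, 6 were apart and higher and 0 lower. The median ratio was 0.31 for the 3 synapsins and 0.19 for the 6 SNAREs, but -0.033 for the 6 active zone and priming genes, of which 4 were lower in replicate 2. These 3 medians kept their direction with TMM-scaled and DESeq2-scaled counts, under which 24 of the 35 members were higher in replicate 2. Of the 15735 genes, 7909 were higher in replicate 2 with TMM scaling and 8340 with DESeq2 scaling.

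Other gene lists also differed between the pools. Of 15 sensory ganglion genes, 14 were higher in replicate 2, with a summed level of 716 TPM in replicate 2 and 512 TPM in replicate 1 and a median log2 ratio of 0.36. All 15 were at 1 TPM or more in both libraries. All 11 skeletal muscle genes with a ratio were lower in replicate 2, and the 12 of that list summed to 279 TPM in replicate 2 and 383 TPM in replicate 1. Of 10 neural crest and Schwann genes with a ratio, 9 were higher in replicate 2. The pan-neuronal list had a median ratio of 0.067, with 12 of 16 higher in replicate 2, and the progenitor list had -0.018. Of 10 motor neuron genes, 5 were higher in replicate 2 and 5 lower, with a median ratio of 0.0080. That median hides differences both ways, since intervals were apart for 4 of the higher and 4 of the lower genes. Among the higher were Isl1 at 0.49 and Prph at 0.65, which are in the sensory ganglion list too. Of 7 endothelial genes 6 were higher in replicate 2, of 10 neuroendocrine genes with a ratio 7, and of 9 erythroid genes 7. The part of such lists in the ratios of Syn1, Snap25 and the other members was not tested.

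**Figure D3:**
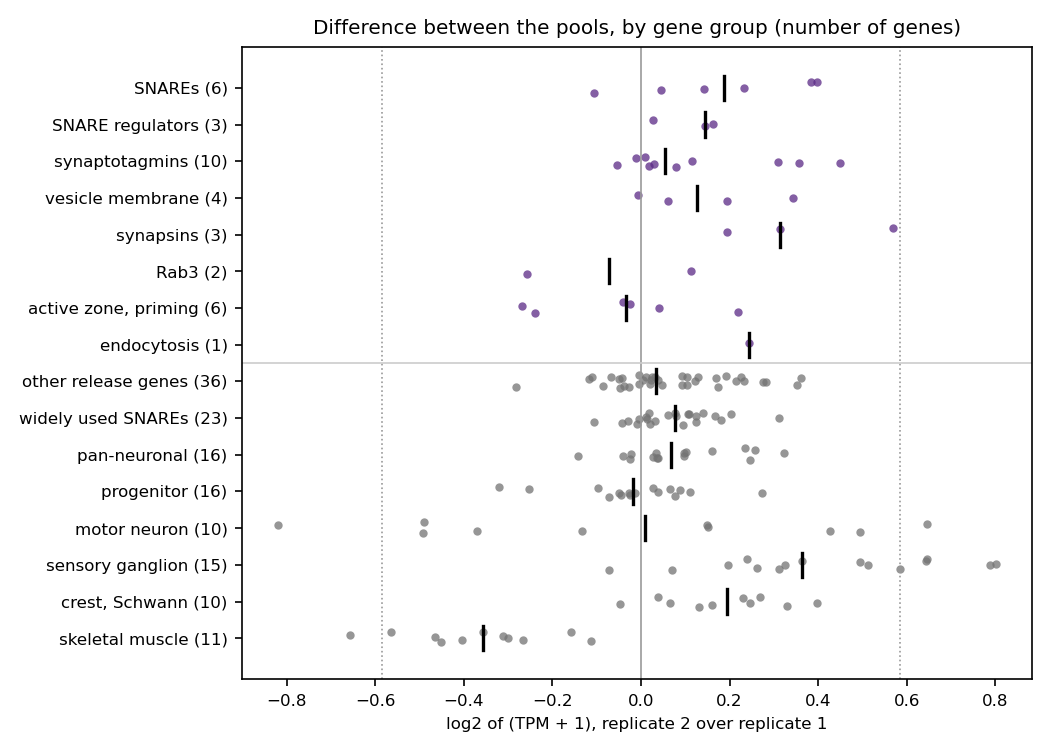
Log2 ratio of TPM + 1, replicate 2 over replicate 1, for each member (purple, by role) and for genes of other lists whose mean was 1 TPM or more (grey). Black bars are medians, the solid line is 0 and dotted lines are 1.5-fold. The synapsins and SNAREs lie mostly right of 0, the active zone genes on both sides, sensory ganglion genes mostly right and all muscle genes left.

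Several members differ in how well their reads can be placed. Expected counts were whole, within 0.005, in both libraries for 28 of the 35 genes. They were not for Syt11, Syp, Syt4, Unc13a, Syn3, Pclo and Syt7, which is how reads that match several genes are counted. Of the 35, 11 share exon bases with a gene on the opposite strand. Besides Syn3 these include Syp, with 875 bases shared with Gm14703 (2.28 TPM in replicate 2 and 1.91 TPM in replicate 1), and Unc13a, with 495 bases shared with Colgalt1 (48.6 TPM in replicate 2 and 44.1 TPM in replicate 1). Neither the count of whole values nor that of overlaps was set beside a share over all genes. The members were long genes, with a median span of 60494 bases, against 25032 bases for the detected protein-coding genes.

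Compared with related gene groups, the release genes stood between channels and growth genes. Growth cone genes, whose products build the moving tip of the axon, had a median of 476 TPM in replicate 2 and 469 TPM in replicate 1. The release genes had medians of 18.4 TPM in replicate 2 and 17.7 TPM in replicate 1. On the log2(TPM + 1) scale the median of the members minus that of growth cone genes was -4.64 ± 0.022 (SD, n = 2). The median of the members lay 1.23 ± 0.074 above that of 24 sodium and calcium channel genes, of which 21 reached 1 TPM in both libraries. These differences were many times the spread between the libraries, which does not measure the spread among genes. The highest growth cone genes were Marcksl1, at 1757 TPM in replicate 2 and 1878 TPM in replicate 1, Tubb3, at 1030 TPM in replicate 2 and 1004 TPM in replicate 1, and Fscn1, at 619 TPM in replicate 2 and 607 TPM in replicate 1.

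SNAREs and related proteins that serve traffic in most cells (the list also holds a dynamin and syntaxin-binding proteins) were higher than the release genes as a group, with all 23 matched genes at 1 TPM or more in both libraries and medians of 42.3 TPM in replicate 2 and 37.2 TPM in replicate 1. The median of the members minus theirs was -1.10 ± 0.090, but -0.33 in TMM-scaled CPM, which have no length correction. Snap47 led that list, at 234 TPM in replicate 2 and 228 TPM in replicate 1, and so exceeded every release gene. Against all detected protein-coding genes the difference was -0.23 ± 0.0052, but by counts scaled without length it was 0.27. Only the medians are compared here, and the ± gives the spread between the libraries, not among genes. By TPM, 17 of the 35 members lay above the median of those genes. The median effective length was 3516 nucleotides for the members and 2451 for those genes.

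A further 44 genes of the release pathway, chosen by role, had medians of 13.2 TPM in replicate 2 and 12.7 TPM in replicate 1. Of these, 36 reached 1 TPM in both libraries and 8 were under 1 TPM in both. The median of the 35 members lay 0.45 above theirs, and 0.17 above when only detected genes were compared. The top 2 of the 44 were a helper of the SNARE cycle and a chaperone. Napa (alpha-SNAP, the adaptor that brings Nsf to spent complexes) had 176 TPM in replicate 2 and 152 in replicate 1. Dnajc5 (cysteine string protein, a vesicle chaperone) had 117 TPM in replicate 2 and 121 in replicate 1. Besides Cplx3 and Cplx4, the lowest was Otof (otoferlin, the calcium sensor of inner hair cells), at 0.17 TPM in replicate 2 and 0.25 TPM in replicate 1.

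Of 8 genes for transmitter transporters, which fill vesicles or return transmitter, 6 reached 1 TPM in both libraries. The highest was Slc17a6 (the vesicular glutamate transporter VGLUT2), at 39.6 TPM in replicate 2 and 36.6 TPM in replicate 1. Slc18a3 (the vesicular acetylcholine transporter) had 24.8 TPM in replicate 2 and 27.3 in replicate 1. Slc17a6 was thus near Sv2a in level, and Slc18a3 was near Rab3c.

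**Figure D4:**
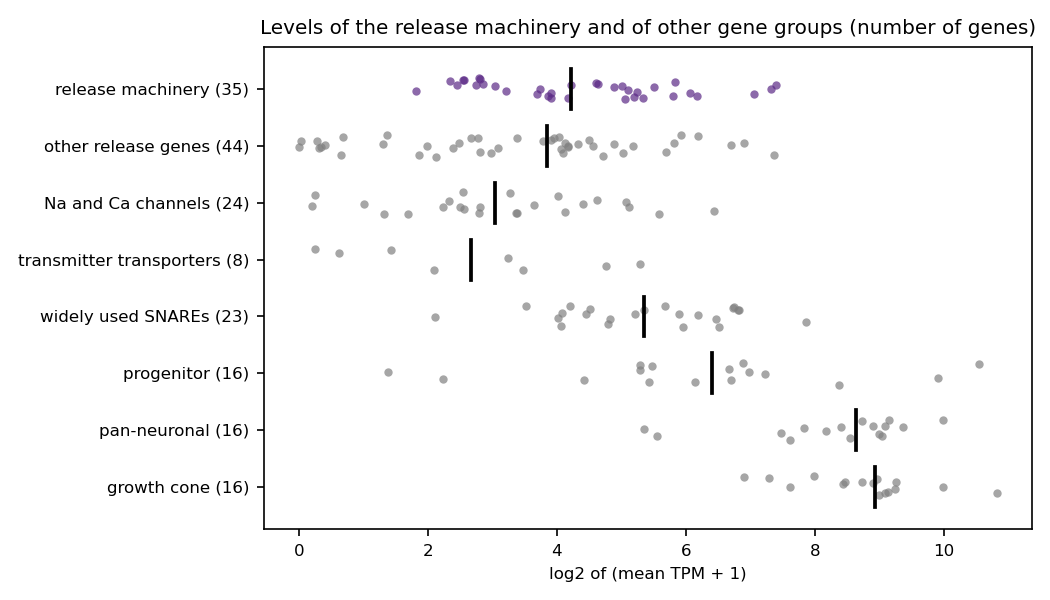
Mean TPM of 2 libraries on the log2(TPM + 1) scale, with 1 point a gene, for the release genes (purple) and other lists (grey). Black bars are medians and the number of genes stands beside each name. The release genes overlap the channels and the widely used SNAREs, and only Syt11, Rab3a and Vamp2 lie in the range of the growth cone genes.

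Transcript forms were read from the deposited percent of each gene's abundance given to each annotated transcript. Of the 35 genes, 5 had 1 transcript in the tables and 30 had several. Among those 30, the leading transcript was the same in both libraries for 26 and differed for 4, namely Syt3, Syn2, Syn3 and Dnm1. Sv2a, Cplx1, Vamp3, Syp and Snap25 had over 90% in 1 transcript in both libraries.

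Snap25 (chromosome 2, plus strand) has alternative versions of exon 5, which encode the part of the protein that holds the lipid-modified cysteines. They give SNAP-25a, best known from the young nervous system, and SNAP-25b, which dominates in the adult brain. Both exons are shown because the transcripts Snap25-201 and Snap25-202 each carry a different version. The exon of Snap25-201 lies at chr2:136770057-136770174 and that of Snap25-202 at chr2:136769743-136769860 (GRCm38, GENCODE M21, plus strand). Capitals mark the 31 of 118 bases that differ.
Snap25-201 exon 5 (SNAP-25b form): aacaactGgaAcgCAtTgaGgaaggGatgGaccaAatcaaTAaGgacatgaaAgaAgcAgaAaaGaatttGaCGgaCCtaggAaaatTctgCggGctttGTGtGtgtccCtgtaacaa
Snap25-202 exon 5 (SNAP-25a form): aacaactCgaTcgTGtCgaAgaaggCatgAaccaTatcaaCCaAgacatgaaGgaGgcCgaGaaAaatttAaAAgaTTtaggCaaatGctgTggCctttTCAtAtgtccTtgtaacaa
The exons shared 73.7% of their bases. Snap25-201 was given 91.2% of Snap25 TPM in replicate 2 and 92.5% in replicate 1. Snap25-202 was given 6.34% in replicate 2 and 4.52% in replicate 1, and the rest went to a retained intron form. The models also differ at their ends: the last exon of Snap25-201 is 1077 bases longer, which is 50.9% of the whole transcript of 2116 bases. Reads from that stretch match Snap25-201 whichever exon 5 the RNA holds. The percents are therefore shares of annotated models, and the use of exon 5 itself cannot be told apart from the use of the longer end in these tables.

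Stx1a had 66.8% of its TPM in the coding form Stx1a-201 in replicate 2 and 59.7% in replicate 1. Its form Stx1a-204, annotated as a target of nonsense-mediated decay, had 12.9% in replicate 2 and 26.9% in replicate 1, and the fragment Stx1a-203 had 15.7% in replicate 2 and 12.4% in replicate 1. The coding form of Stx1a thus differed between the pools in the same direction as the gene. Vamp2-201 had 76.9% in replicate 2 and 74.6% in replicate 1, and Vamp2-202 had 13.6% in replicate 2 and 14.2% in replicate 1. Snap23-202 had 78.0% in replicate 2 and 73.3% in replicate 1. Nsf-202 had 76.1% in replicate 2 and 78.1% in replicate 1.

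The synapsins were split between long and short forms. Syn1-201, with 2118 coding bases, had 52.9% of Syn1 in replicate 2 and 50.8% in replicate 1, and the rest was Syn1-202, with 2010 coding bases. For Syn2, the short form Syn2-202 (1437 coding bases) had 56.8% in replicate 2 and 49.8% in replicate 1, and the long form Syn2-201 (1758 coding bases) had the rest. Neither form was clearly dominant in either gene.

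Among the synaptotagmins, Syt11-201 had 69.6% in replicate 2 and 71.9% in replicate 1, and the shorter Syt11-205 had 29.4% in replicate 2 and 27.2% in replicate 1. Syt1-201 had 79.9% in replicate 2 and 79.4% in replicate 1, while a retained intron form, Syt1-204, had 13.2% in replicate 2 and 15.2% in replicate 1. Rab3a-201 had 74.4% in both libraries, and Rab3a-204, with the same coding length of 660 bases, had 18.5% in replicate 2 and 20.6% in replicate 1. Sv2c-201 had 70.7% in replicate 2 and 61.6% in replicate 1, with Sv2c-203 next at 29.3% in replicate 2 and 37.8% in replicate 1.

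Among the priming and scaffold genes, Rims2-202 had 58.3% in replicate 2 and 52.9% in replicate 1, and Rims2-201 had the rest. Unc13b-201 had 59.6% in replicate 2 and 59.4% in replicate 1, the largest share among its 15 transcripts. Unc13a-201 had 52.1% in replicate 2 and 48.2% in replicate 1, and the retained intron form Unc13a-206 had 13.9% in replicate 2 and 18.5% in replicate 1. Dnm1, the dynamin, had no dominant form: Dnm1-202 had 16.5% in replicate 2 and 28.8% in replicate 1, Dnm1-203 had 25.6% in replicate 2 and 14.1% in replicate 1, and the retained intron form Dnm1-211 had 21.8% in replicate 2 and 8.21% in replicate 1. The pools thus differed more in the forms of Dnm1 and Stx1a than in those of Snap25 or Rab3a.

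**Figure D5:**
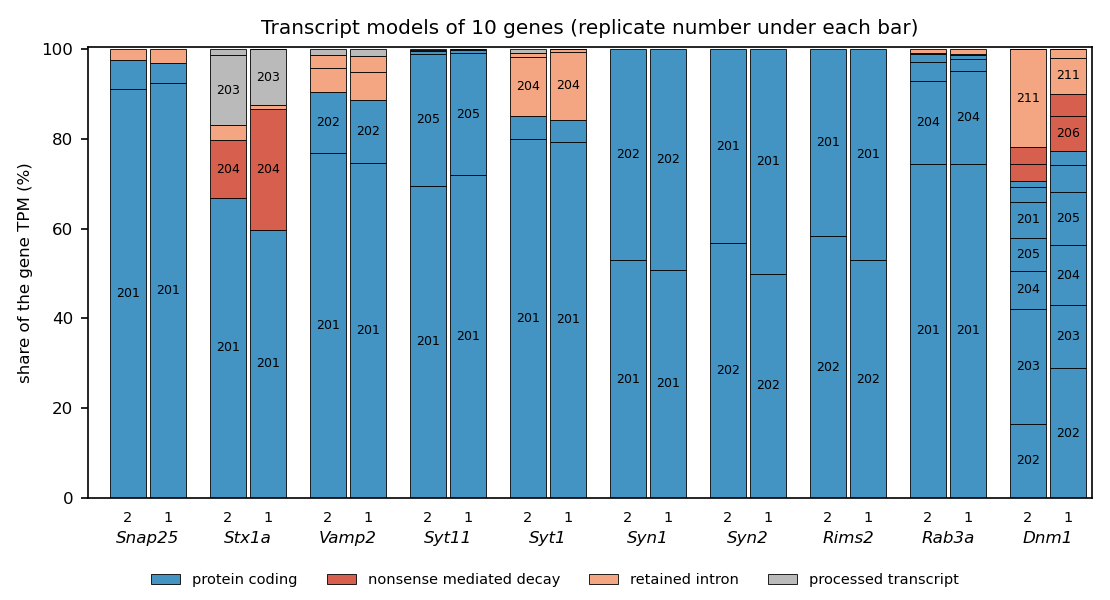
Share of each gene's TPM (%) in its annotated transcripts for 10 members, with replicate 2 left of replicate 1, coloured by transcript type. Numbers are the suffixes of transcript names. Snap25-201 fills over 90% of both Snap25 bars, Syn1, Syn2 and Rims2 are split nearly evenly, and Stx1a and Dnm1 differ most between the libraries.

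Transcripts of 3 annotated types (retained intron, nonsense-mediated decay and processed transcript) held a median of 2.74% of a member's TPM, beside 1.48% over 13514 protein-coding genes averaging 1 TPM or more. They held at least 20% in 8 of the 35 members, beside 23.3% of those genes, with Syn3 at 38.4% and Stx1a at 36.8% the highest. In 13 of the 35 they held none, beside 45.8% of those genes. Partial models annotated as protein-coding are not in these shares.

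Promoter windows (250 bases before to 50 after the annotated start, RefSeq on GRCm38.p6) were present for 26 of the 35 genes, in 35 windows. The window of Syn1, the gene that differed most between the pools, is shown because Syn1 is a textbook target of REST, the repressor that keeps neuronal genes silent outside neurons. REST binds the RE1 element, searched here on both strands as TCAGCACC, any 2 bases, then GGACAG, with up to 2 mismatches allowed in the 14 fixed bases. The window lies at chrX:20920869-20921168 on the minus strand, and capitals mark the RE1-type match and then a cAMP response element, TGACGTCA.
Syn1 promoter: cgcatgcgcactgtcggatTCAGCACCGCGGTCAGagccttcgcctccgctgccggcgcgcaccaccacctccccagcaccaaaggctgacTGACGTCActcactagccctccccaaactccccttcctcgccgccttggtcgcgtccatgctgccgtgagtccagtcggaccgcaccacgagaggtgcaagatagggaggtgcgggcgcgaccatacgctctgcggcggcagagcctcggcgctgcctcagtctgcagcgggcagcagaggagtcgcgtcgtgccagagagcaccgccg
The match began 231 bases before the start and differed from the searched motif by A13T, with the motif base first and positions counted from 1 at its 5′ end. A match within 2 mismatches stood in 2 of the 35 member windows, those of Syn1 and Syt2, and in 0.511% of all 32851 promoter windows. The cAMP response element stood in 1 member window and in 1.79% of all windows. These are matches of letters, and no binding was measured.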

How the data were processed

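Gene and transcript tables were deposited for each of 2 libraries of mouse neural tube RNA, and the series title marks the series as superseded. Per the deposited read-me, the authors aligned reads to GENCODE M4 transcripts of mm10 and quantified them with a program that no label or header names. The deposited expected counts estimate the reads of each gene or transcript. TPM and FPKM values are deposited per effective length and depth. The percent of a gene's abundance in each transcript was deposited from maximum likelihood and posterior mean estimates. Before deposit, the authors' quantification produced the score values, here effective lengths in nucleotides, and the signal values, here the bounds of the TPM intervals. Both were used as deposited. The bounds served only to draw the intervals and to see if they overlapped, and effective lengths were reported only as lengths.

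Names, biotypes and exons were those of GENCODE M21 (GRCm38, which is the assembly of mm10), matched by identifier without version (42462 of 43346 genes matched). Detection required 1 TPM or more in each library. Ratios were taken with a pseudocount of 1 over genes averaging 1 TPM or more. Libraries held 33530145 counts on mouse genes in replicate 2 and 31610770 in replicate 1, a precision limited by counting error and pool spread. Expected counts were rounded for TMM factors (edgeR 4.0.16) and size factors (DESeq2 1.42.0), used only as scalings. All 35 members are named. Other genes named for their level are among the 3 highest, or up to 3 lowest under 1 TPM, of their list, and not all of these are named. Genes that share exon bases with members were named after their values were seen, as were Rab3b, Rab3d, Rims3, Rims4 and Syt16. A gene that this rule takes is not reported here. The members and lists were chosen with earlier results of these data known. Some lists share genes, and 1 symbol each of the widely used SNAREs and the sensory ganglion list was unmatched. The ratio calculation was tested on simulated data, with planted changes larger than the difference of any member. That test does not show how well smaller ratios are recovered. Sequences came from GENCODE M21 transcripts and RefSeq promoters. Alternatives were another pseudocount, unit, scaling or filter, and each library alone.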

Additional observations from a re-analysis of the deposited data

How the results depend on the processing

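All 35 members were also detected by posterior mean TPM and by FPKM, and 29 reached 5 TPM in both libraries. At 0.5 TPM and in each library alone the count of 35 was fixed in advance, since all had reached 1 TPM in both. The median of members minus detected protein-coding genes was -0.24 with a pseudocount of 0.1 and -0.22 by FPKM and by posterior mean TPM, but 0.27 in TMM-scaled CPM, which has no length correction. Against growth cone genes it was -4.70 with a pseudocount of 0.1, -4.59 by FPKM and by posterior mean TPM and -3.93 in TMM-scaled CPM. Against channels it was 1.33 with a pseudocount of 0.1, 1.15 by posterior mean TPM, 0.76 in TMM-scaled CPM and 0.88 with detected genes only. Against widely used SNAREs it was -0.33 in TMM-scaled CPM. Against other release genes it was 0.48 with a pseudocount of 0.1, 0.43 by FPKM, 0.47 by posterior mean TPM, 0.76 in TMM-scaled CPM and 0.17 with detected genes only. The median log2 ratio of the members was 0.070 with TMM-scaled CPM and 0.080 with DESeq2 size factors. Over all genes averaging 1 TPM or more, it was 0.00091 with TMM-scaled CPM and 0.0099 with DESeq2 size factors. With a pseudocount of 0.1, 1 member (Syn1) passed 1.5-fold. FPKM intervals were apart for 11 members. Neither count was set beside a share over all genes. By expected counts, without length, Cplx1 held 54.0%, Rims2 79.8%, Unc13b 48.2% and Rab3a 50.1% of their pairs. Where a value in CPM or counts differs, the missing length correction is part of how it is built; the cause of the other shifts was not tested. With 2 libraries, each alone lies within 1 SD of their mean by construction, so leaving 1 out says nothing about stability. No paired analysis was possible because the series has only 1 group. With 1 library a pool, pool and library cannot be told apart.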
